A study of Homo sapiens with 8 samples.

Results

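The guides described here are all those in a genome-wide CRISPR knockout screen whose target is ARAF, BRAF, MAP2K1, MAP2K2, MAPK3, NF1, DUSP6 or SPRY2. They were taken by gene symbol from the guide table. There are 48 of them, 6 for each of the 8 genes, among 119461 guides in all, with 24 from part A and 24 from part B of the human GeCKOv2 library. The cells were MB157R, a triple-negative breast cancer line that had become resistant to γ-secretase inhibition through long exposure to the inhibitor, here with stable Cas9. Single guide RNAs (sgRNAs) were counted in genomic DNA of 3 cultures grown to day 14 in LY3039478, a γ-secretase inhibitor (GSI), at 10 µM, 3 cultures kept with the solvent DMSO to day 14, and 2 aliquots collected at T0. All 8 libraries came from 1 transduced and selected pool, so their spread is that between cultures or aliquots of this pool. A guide that becomes rarer can mark a gene whose loss slowed growth, and a guide that becomes more common can mark a gene whose loss favoured it. Guide counts also differ between aliquots and cultures of the same pool, so a change in 1 guide does not by itself show such an effect.

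RAF, MEK and ERK are kinases that act in a row. Active RAS at the membrane recruits the RAF kinases, among them ARAF and BRAF. RAF phosphorylates MEK1 and MEK2, the products of MAP2K1 and MAP2K2, and MEK phosphorylates ERK, of which MAPK3 encodes ERK1. The pathway carries growth factor signals in epithelial cells, and several tumor types depend on it. It is held back at different points. NF1 encodes neurofibromin, which switches RAS off, SPRY2 encodes Sprouty2, an inhibitor of receptor signals that is itself induced by ERK, and DUSP6 encodes a phosphatase that removes phosphate from ERK in the cytoplasm. Many of these genes have close relatives of like function, so that the loss of 1 gene leaves a partner in place.

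None of the 8 genes was called in any of the 3 comparisons made, which set GSI against DMSO and each day 14 arm against T0. A gene was called by robust rank aggregation of its guides' edgeR p-values at an adjusted p under 0.05 (Benjamini-Hochberg over 18570 genes), on the low and on the high side. With GSI against DMSO the genes lay on both sides of 0, with 4 above and 4 below. Against T0 all 8 had a fold change above 0 in both arms, which share the T0 libraries. This count was chosen after seeing the data. Over all genes, 49.99% were above 0 with GSI and 50.31% with DMSO. The median over the 8 genes was 0.32 for GSI and 0.32 for DMSO. Fold changes are given on the log2 scale throughout, and that of a gene is the middle value of its guides. The median over all genes was 0.00 in both comparisons, and that of the 999 non-targeting control guides tested was 0.19 with GSI and 0.25 with DMSO. The all-positive count did not hold when size factors came from the non-targeting controls (6 of 8 with GSI, 5 of 8 with DMSO) or from library totals (6 of 8 with GSI), nor without GSI replicate 2 (7 of 8) or 3 (6 of 8), nor without T0 replicate 2 (6 of 8 with either arm) or with the replicate number as a block (7 of 8 with either arm). Without T0 replicate 2 ARAF stood at −0.44 with GSI and −0.49 with DMSO.

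The libraries held 12052218 to 18212884 counts. In GSI replicate 1, 38.8% of them belonged to a single guide against VPS33B, and counts were therefore scaled by median-ratio size factors. The median count of the 48 guides was 77 to 140 in GSI libraries, 86 to 122 in DMSO libraries, and 115.5 and 55 in T0 replicates 1 and 2. After scaling, their median was 96.6 and 52.2 in T0 replicates 1 and 2, against 92.0 and 87.3 over all guides. In the day 14 libraries it was 98.0 to 116, against 88.8 to 91.9 over all guides. The T0 libraries differed most from each other. Of the 48 guides, 17 (35.4%) differed over 4-fold between them, against 33.5% of all guides. Between any 2 GSI libraries it was 0 to 4 guides (0% to 8.33%), against 7.93% to 11.1% of all guides. Between any 2 DMSO libraries it was 1 to 7 guides (2.08% to 14.6%), against 14.6% to 17.1% of all guides. In T0 replicates 1 and 2, 3 of the 48 guides each (6.25%) were at a count of 0, against 5.1% and 11.5% of all guides. One guide, HGLibA_28141 against MAP2K2, had at most 11 counts in any library and was left out of the tests by the filter on low counts, so 47 were tested.

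The first question was whether loss of a cascade kinase or of a brake changed growth under the inhibitor, as GSI against DMSO. No guide was called by edgeR among the 47 or among all guides (0%), and DESeq2 called none of the 47 either. At an unadjusted p under 0.05, 0 of the 47 were higher and 0 lower, against 1.53% and 1.48% of all guides. In 1 of the 47 all GSI libraries lay above all DMSO libraries, and in 2 they lay below, against 4.72% and 4.36% of all guides, so separation of the groups was not more common than in the library at large. No gene of any kind was called lower (0%) or higher (0%). At an unadjusted p under 0.05, 0 of the 8 genes were on the low side and 0 on the high side, against 5.04% and 5.01% of all genes. Without DMSO replicate 2 this count on either side was 1, and the share of all genes under that alternative is not given here. The 5 kinases had a median fold change of −0.03 over genes and the 3 brakes one of 0.02.

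The fold changes farthest from 0 with GSI against DMSO were those of SPRY2 and DUSP6, both brakes. Without GSI replicate 2 SPRY2 was at 0.24 and MAP2K1 at 0.26, and without DMSO replicate 1 SPRY2 and MAPK3 were both at 0.36. With library totals SPRY2 was at 0.24 and ARAF at −0.32. Without DMSO replicate 2 DUSP6 was at −0.31 and MAP2K1 at 0.32, and without DMSO replicate 3 DUSP6 was at −0.31 and MAP2K2 at −0.36. With means over guides DUSP6 was at −0.22 and MAP2K1 at 0.23. SPRY2 stood at 0.44 ± 0.50 (SD over 6 guides), above 93.8% of all genes, with 5 guides higher and 1 lower. Its guides averaged 71.4, 89.0 and 59.4 normalized counts in the GSI libraries, against 56.3, 66.5 and 63.0 in the DMSO libraries. The ranges overlapped, and the adjusted p on the high side was 0.982 (edgeR guide tests). DUSP6 stood at −0.41 ± 0.66 (SD over 6 guides), with 1 guide higher and 5 lower. Its mean normalized counts were 67.3, 76.3 and 73.5 with GSI, against 82.4, 111 and 91.7 with DMSO. Here every GSI library was below every DMSO library, but by a narrow margin, and the adjusted p on the low side was 0.988. The share of all genes whose guide means separate in this way was not computed. The sign of both fold changes was the same in the 15 alternatives run for each, at 0.24 to 0.74 for SPRY2 and −0.61 to −0.22 for DUSP6. The third brake, NF1, was at 0.02 ± 0.32 with 3 guides on each side, and this sign changed in 6 of 16 alternatives.

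With the settings used here, the kinases had smaller fold changes than SPRY2 and DUSP6 with GSI against DMSO. When guides had to average 50 counts, which left SPRY2 and DUSP6 with too few, MAP2K1 was at 0.64. ARAF was at −0.13 ± 0.23, BRAF at −0.06 ± 0.41 and MAP2K2 at −0.03 ± 0.69, while MAP2K1 was at 0.02 ± 0.78 and MAPK3 at 0.13 ± 0.46 (SD over guides). Their lowest adjusted p on either side was 0.982, for MAP2K1 on the high side. The sign of each of these fold changes turned in at least 2 alternatives. With library totals in place of median ratios 1 of the 8 genes was above 0, and this scaling moved the median of all genes to −0.22. The guides of MAP2K1 were the most divided. HGLibA_28139 had 79.5, 118 and 90.9 normalized counts in GSI libraries, against 16.4, 90.3 and 4.56 in DMSO libraries. This guide had the lowest p of all 47 in the comparison (log2 fold change 1.36, adjusted p = 1.00, edgeR), and the spread between DMSO libraries was larger than the gap between the groups. HGLibB_28098 against the same gene was at −0.53.

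The 3 guides with separate groups each stood alone within their gene. HGLibA_04751 against BRAF had 168, 130 and 202 normalized counts with GSI, against 114, 111 and 129 with DMSO (log2 fold change 0.50, adjusted p = 1.00, edgeR). The next value below the lowest GSI library was a DMSO library within 2 normalized counts, and of the other 5 BRAF guides 4 were below 0. HGLibB_02620 against ARAF was lower, at 137, 161 and 148 with GSI and 218, 172 and 169 with DMSO. HGLibA_31759 against NF1 was also lower, at 154, 172 and 138 with GSI and 231, 233 and 214 with DMSO (log2 fold change −0.55, adjusted p = 1.00, edgeR).

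The comparisons with T0 asked whether the resistant cells needed these genes for growth. They share the T0 libraries, so their values are set side by side and neither supports the other. Over all genes, 6 of 18570 genes (0.0323%) were called lower with DMSO against T0. None of the 8 was among them, and none was called higher, nor was any other gene (0%). With GSI against T0 no gene was called lower (0%) or higher (0%). The adjusted p on the low side was 1.00 for all 8 genes in both comparisons. At an unadjusted p under 0.05, 0 of the 8 genes were on the low side with GSI and 0 with DMSO, where 5.68% and 6.13% of all genes were. On the high side there were 0 with GSI, where 5.39% of all genes were, and 1 with DMSO, ARAF, where 5.3% were. With DMSO this count of genes on either side was 0 without DMSO replicate 1, without T0 replicate 2, with control-guide scaling and with the replicate block. It was 2 without DMSO replicate 2 or 3, and with a rank aggregation alpha of 0.05 in place of 0.25. With GSI it was 1 without GSI replicate 2, without either T0 library and with the replicate block. It was also 1 with all 8 libraries in 1 fit, with that other alpha, and when guides had to average 50 counts. The shares of all genes under these alternatives are not given here, so these counts are not read as results about the 8 genes.

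Single guides against the 8 genes were more often above than below T0, as were the non-targeting controls. With GSI 29 of the 47 were above 0 and 18 below, and with DMSO 33 were above and 14 below, while 58352 of all 116852 tested guides were above with GSI and 58404 with DMSO. As shares, this was 61.7% of the 47 and 63.7% of the non-targeting guides with GSI, and 70.2% of the 47 and 66.2% of the non-targeting guides with DMSO. No guide was called by edgeR in either comparison (0% of all guides in each). At an unadjusted p under 0.05, 4 of the 47 (8.51%) were higher with GSI and 5 (10.6%) with DMSO, where 4.82% and 4.18% of all guides were. On the low side there were 0 in each, where 3.8% and 3.57% were. DESeq2 called 5 of the 47 higher with GSI (10.6%, against 6.80% of all guides called either way) and 4 higher with DMSO (8.51%, against 5.73%), and none lower. All GSI libraries lay above both T0 libraries for 11 guides (23.4%, against 15.7% of all guides) and below them for 1 (2.13%, against 13.6%). All DMSO libraries lay above both T0 libraries for 12 guides (25.5%, against 14.9%) and below them for 1 (2.13%, against 13.1%).

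These high guides were mostly ones that were rare at T0. The 11 guides with all GSI libraries above T0 had a median of 32.0 normalized counts at T0, against 124 for the 35 guides that overlapped. For the 12 guides with all DMSO libraries above T0 it was 29.4, against 125 for the 34 that overlapped. Among the 15 tested guides with under 50 normalized counts at T0, the median log2 fold change was 1.88 with GSI and 1.39 with DMSO, while over the 28984 such guides of the whole library it was 1.20 with GSI and 1.23 with DMSO. Among the 17 with 50 to 150, it was 0.23 with GSI and 0.36 with DMSO, against −0.02 and −0.01 over all 52123 such guides. Among the 15 with at least 150, it was −0.26 with GSI and −0.08 with DMSO, against −0.44 and −0.45 over all 35745 such guides. The T0 level also enters the fold change, so guides grouped as low at T0 tend upward and those grouped as high tend downward by construction. The part of the T0 level in the fold changes of the 8 genes was not tested.

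ARAF encodes the RAF kinase whose gene lies on the X chromosome (GRCh38, 47561205 to 47571908). It had the lowest gene p of the 8, on the high side of DMSO against T0 (exact rank aggregation p = 0.0366, adjusted p = 0.931, from edgeR tests), and with GSI the exact p was 0.0653 (adjusted p = 0.924). The fold change was 0.36 ± 0.98 with GSI and 0.32 ± 1.03 with DMSO (SD over 6 guides). Its guides averaged 154, 155 and 201 normalized counts in GSI libraries, 184, 166 and 166 in DMSO libraries, and 183 and 55.8 at T0. T0 replicate 1 thus lay among the day 14 values and T0 replicate 2 far below them. Without T0 replicate 1 the fold change was 1.91 with GSI and 1.71 with DMSO, while without T0 replicate 2 it was −0.44 with GSI and −0.49 with DMSO.

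The 2 ARAF guides with the lowest p lay well above the others. HGLibA_02621 had 206, 134 and 306 normalized counts with GSI, 276, 154 and 190 with DMSO, and 72.0 and 51.3 at T0. Both arms lay above both T0 libraries, by a log2 fold change of 1.82 ± 0.62 with GSI (SE; adjusted p = 0.491, edgeR) and 1.74 ± 0.69 with DMSO (SE; adjusted p = 0.598). HGLibB_02620 had 137, 161 and 148 with GSI, 218, 172 and 169 with DMSO, and 60.2 and 17.1 at T0. It was at 1.96 ± 0.80 with GSI and 2.26 ± 0.84 with DMSO (SE). DESeq2 called both in both comparisons, with adjusted p from 0.0132 to 0.0439. The other 4 ARAF guides were between −0.28 and 0.48 in both comparisons.

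BRAF (chromosome 7, 140719327 to 140924929) encodes the RAF kinase that is most often mutated in cancer. Its fold change was 0.09 ± 0.69 with GSI and 0.15 ± 0.68 with DMSO against T0 (SD over 6 guides), with 3 guides above 0 and 3 below in both. The mean normalized counts were 111, 161 and 184 with GSI, 125, 182 and 149 with DMSO, and 145 and 128 at T0, so the groups overlapped. Behind the like means at T0, all 6 guides differed over 4-fold between the T0 libraries. HGLibB_04750 had 307 and 5.69 normalized counts in T0 replicates 1 and 2, HGLibB_04751 340 and 34.2, and HGLibB_04749 137 and 10.4. The 3 guides of part A went the other way, with 24.3 and 418 for HGLibA_04753 as the widest gap. The gene value was higher with either T0 library alone, at 0.81 with GSI and 0.85 with DMSO without T0 replicate 1, and at 1.03 with GSI and 0.78 with DMSO without T0 replicate 2. At day 14 the same 6 guides had 22.3 to 362 normalized counts with GSI and 36.5 to 357 with DMSO.

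MAP2K1 (chromosome 15, 66386837 to 66491656) encodes MEK1. The fold change against T0 was 0.28 ± 1.31 with GSI and 0.32 ± 1.12 with DMSO (SD over 6 guides), and the mean normalized counts of 64.6, 87.3 and 89.6 with GSI, 69.0, 84.0 and 53.3 with DMSO, and 75.4 and 63.7 at T0 overlapped. Its guides pointed in both directions. HGLibB_28097 had 75.4, 149 and 54.3 normalized counts with GSI, 69.0, 45.1 and 33.0 with DMSO, and 11.7 and 25.6 at T0 (log2 fold change 2.33 ± 1.04 with GSI, SE; adjusted p = 0.585, edgeR). HGLibB_28098 was at −1.57 with GSI and −1.06 with DMSO, and HGLibA_28139 was the 1 guide of the 47 with all DMSO libraries below both T0 libraries, at −1.45.

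MAP2K2 (chromosome 19, 4090321 to 4124122) encodes MEK2 and had the highest fold change of the 8 against T0, 1.33 with GSI and 1.52 with DMSO over 5 tested guides. These values lay above 98.8% and 99.1% of all genes. SPRY2 was higher with the replicate block in both comparisons and, with GSI, without T0 replicate 1. Without GSI replicate 3, SPRY2 and MAPK3 were higher with GSI. ARAF was higher in both comparisons without T0 replicate 1. The p of MAP2K2 on the high side was 0.0656 with GSI (adjusted p = 0.924) and 0.0783 with DMSO (adjusted p = 0.945, edgeR guide tests). The guide means were 72.7, 79.0 and 97.3 normalized counts with GSI, 86.8, 93.4 and 76.5 with DMSO, and 82.8 and 23.9 at T0, so T0 replicate 1 was within the range of day 14. HGLibA_28143 had no count in either T0 library, and 52.5, 10.3 and 27.2 normalized counts with GSI and 81.1, 13.5 and 98.0 with DMSO. Set against a floor of 3 counts per T0 library, its group mean was at least 11.2-fold higher with GSI and at least 24.0-fold higher with DMSO. This bound covers counting error only, not the spread between T0 aliquots. With T0 counts under 10, this guide passed the filter on low counts only through the day 14 libraries, so the filter favoured a higher value there. At this bound (log2 3.49 with GSI and 4.58 with DMSO) the guide was still the highest of the 5. Using the bound in place of the fitted value therefore left the median over guides unchanged. The SD over guides was then 1.44 with GSI and 2.07 with DMSO. The other tested guides were at 1.9, 1.33, 0.12 and −0.03 with GSI and 1.85, 1.52, 0.12 and −0.87 with DMSO. The gene value and its place among the 8 include HGLibA_28143, which the filter favoured. The value without this guide was not computed. HGLibA_28142 was also low at T0, with 18.4 and 45.6, against 132, 89.8 and 132 with GSI and 122, 180 and 45.6 with DMSO (DESeq2 adjusted p = 0.0489 with GSI). The fold change of the gene depended on single libraries, at 0.48 with GSI without GSI replicate 3 and 1.02 with DMSO without DMSO replicate 2.

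MAPK3 (chromosome 16, 30114105 to 30123506) was at 0.75 ± 1.29 with GSI and 0.19 ± 1.22 with DMSO against T0 (SD over 6 guides). Mean normalized counts were 169, 123 and 129 with GSI, 155, 130 and 101 with DMSO, and 130 and 123 at T0. The means overlapped, while HGLibB_28231 lay above both T0 libraries in both arms and HGLibA_28272 did so with GSI. The other MAPK3 guides overlapped T0. HGLibB_28231 was rare throughout, with 22.9, 32.6 and 17.8 normalized counts with GSI, 26.3, 18.1 and 28.5 with DMSO, and 5.02 and 0.949 at T0 (log2 fold change 2.99 ± 1.71 with GSI, SE; adjusted p = 0.684, edgeR). The T0 values are 6 and 1 raw counts, so this guide too passed the filter only through the day 14 libraries. The value with GSI was 0.32 without T0 replicate 2. The sign with DMSO turned with control-guide scaling (−0.09), with the replicate number as a block (−0.03) and without T0 replicate 2 (−0.12).

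NF1 (chromosome 17, 31094927 to 31382116), a tumor suppressor whose loss raises RAS activity, had the most abundant guides of the 8 genes. They averaged 262, 344 and 267 normalized counts with GSI, 313, 255 and 297 with DMSO, and 288 and 204 at T0. The fold change against T0 was 0.06 ± 0.71 with GSI and 0.21 ± 0.69 with DMSO (SD over 6 guides), with overlapping libraries. Without T0 replicate 1 it was 0.59 with GSI and 0.67 with DMSO. HGLibB_31715 had 222, 301 and 311 normalized counts with GSI, 261, 54.2 and 361 with DMSO, and 139 and 78.8 at T0. GSI libraries lay above T0 for this guide (1.37 ± 0.50, SE; adjusted p = 0.510, edgeR), and DESeq2 called it with GSI (adjusted p = 0.0228). HGLibA_31757 had an unadjusted p of 0.0419 with DMSO at 1.32, and the other 4 NF1 guides were between −0.36 and 0.40 in both comparisons.

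DUSP6 (chromosome 12, 89347235 to 89352501) was at 0.29 ± 0.85 with GSI and 0.41 ± 1.10 with DMSO against T0 (SD over 6 guides). Mean normalized counts at T0 were 66.8 and 64.5, below all 3 GSI libraries (67.3, 76.3 and 73.5) and all 3 DMSO libraries (82.4, 111 and 91.7), narrowly for GSI. How often guide means of a gene separate from T0 in this way over all genes was not computed. HGLibB_14166 lay farthest above T0, at 95.6, 52.5 and 146 with GSI, 138, 252 and 55.8 with DMSO, and 16.7 and 37.0 at T0. Its log2 fold change was 1.88 ± 0.97 with GSI (SE; adjusted p = 0.645, edgeR) and 2.46 ± 1.01 with DMSO (SE; adjusted p = 0.615). HGLibB_14164 was the 1 guide of the 47 with all GSI libraries below both T0 libraries, by a margin far smaller than their spread, with at most 164.5 normalized counts with GSI against at least 164.8 at T0. The 3 guides of part A had at most 95.3 normalized counts in any library.

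SPRY2 (chromosome 13, 80335976 to 80341126) was at 0.83 ± 1.70 with GSI and 0.53 ± 1.47 with DMSO against T0 (SD over 6 guides). Its mean normalized counts were lower than at T0 in sum, since 1 guide was abundant in 1 T0 library. They were 71.4, 89.0 and 59.4 with GSI, 56.3, 66.5 and 63.0 with DMSO, and 116 and 47.0 at T0. HGLibB_46781 alone had 508 normalized counts in T0 replicate 1, against 54.1 in T0 replicate 2. HGLibB_46780 lay above T0 in all cultures, with 49.8, 75.5 and 64.7 with GSI, 26.3, 31.6 and 52.4 with DMSO, and 0.837 and 13.3 at T0 (log2 fold change 3.17 ± 1.48 with GSI, SE; adjusted p = 0.604, edgeR). Its T0 values are 1 and 14 raw counts, which would not have passed the filter by themselves. HGLibB_46782 was at −1.25 with GSI and −1.45 with DMSO. The gene value depended on the T0 libraries, at 1.83 with GSI and 1.34 with DMSO without T0 replicate 1, and at 0.39 with GSI without T0 replicate 2. With DMSO it was 0.07 without DMSO replicate 1.

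Among the 8 genes the kinases and the brakes did not stand apart by their medians. Against T0 the 5 kinases had a median of 0.36 with GSI and 0.32 with DMSO over genes, and the 3 brakes one of 0.29 with GSI and 0.41 with DMSO. Over guides, 18 of 29 kinase guides and 11 of 18 brake guides were above 0 with GSI, and 20 of 29 and 13 of 18 with DMSO.

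Other genes around the cascade gave a frame for these values. Of a list of 62 genes (further kinases, scaffolds, adaptors and exchange factors, GTPase activating proteins, Sprouty and SPRED proteins, ERK phosphatases, and kinases and factors downstream of ERK), 61 were in the table and tested, and 0 were called either way in each comparison. Their median was −0.02 with GSI against DMSO, −0.15 with GSI against T0 and −0.16 with DMSO against T0, and 26 of 61 were above 0 with GSI against T0 and 22 of 61 with DMSO against T0. The lowest p of the list on the low side against T0 was that of PHB, which encodes prohibitin, a mitochondrial scaffold protein that also binds RAF, at −1.02 ± 1.76 with GSI (adjusted p = 0.643) and −1.70 ± 2.10 with DMSO (SD over 5 guides; adjusted p = 0.217, edgeR guide tests). Next on that side with GSI were DAB2IP, a RAS GTPase activating protein, at −0.59, and SOS1, an exchange factor for RAS, at −0.81. With DMSO they were SHC1, an adaptor of receptor kinases, at −0.91, and RASGRP3, an exchange factor, at 0.20, a median on the other side of 0 from its test. On the high side with GSI stood ELK4 at 0.73, RASA1 at 0.43 and ETV5 at 0.47, and with DMSO RASA1 at 0.55, SPRED2, an inhibitor of RAF activation, at 0.95, and SOS2 at 0.42. At an unadjusted p under 0.05 the list held 4 genes on the low side and 3 on the high side with GSI, and 4 and 2 with DMSO, of 61. Over all genes the shares were 5.68% and 5.39% with GSI, and 6.13% and 5.3% with DMSO.

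With GSI against DMSO, the lowest p-values of the list on the low side were those of MAPK7, which encodes ERK5, at −0.12 (adjusted p = 0.957, edgeR guide tests), RPS6KA1, an ERK-activated kinase, at −0.56, and SOS1 at −0.48. On the high side they were those of SPRY1 at 0.53 (adjusted p = 0.898), GRB2, the adaptor that brings SOS proteins to receptors, at 0.73, and PHB at 0.66. At an unadjusted p under 0.05 there were 4 list genes on the low side and 4 on the high side, of 61, while over all genes the shares were 5.04% and 5.01%.

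The pattern over the 6 day 14 libraries, as the median over guides of log2 normalized counts plus 1 relative to the T0 mean, was compared with that of ARAF, the gene with the lowest p. The levels of ARAF were 0.62, 0.07 and 0.70 with GSI and 0.91, 0.65 and 0.39 with DMSO. The nearest of 18562 other genes were FAM159A, ZNF616 and MARCH8, with root-mean-square differences of 0.106, 0.112 and 0.116, against a median of 0.77 over all of them.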

How the data were processed

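Reads of sgRNAs were trimmed by the authors with bcl2fastq 2.19, checked with FastQC 0.11.5 and counted per guide with MAGeCK 0.5.9.2. The deposited count table holds raw counts and was the source of every value. The deposited normalized table holds a signal that is the raw count times 1 constant per library, and was not used further. No genome alignment was involved. Guide sequences were not analysed here.

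Tests took in the 116852 of 119461 guides whose counts averaged 10 or more per library. Normalized counts are raw counts divided by median-ratio size factors over the 8 libraries. Each comparison was fitted with the quasi-likelihood functions glmQLFit and glmQLFTest of edgeR 4.0.16 (R 4.3.3, limma 3.58.1) on the libraries of the 2 groups compared, with two-sided p-values adjusted by Benjamini-Hochberg over all guides. The SE of a guide is its fold change over the root of its F statistic. Genes with at least 4 tested guides were tested by robust rank aggregation, the method of the study, written anew with an alpha of 0.25, from one-sided guide p-values and an exact null of uniform ranks. Control and microRNA guides were left out there. DESeq2 1.42.0 was an alternative. The scripts were tested on simulated data for GSI against DMSO only, with the same change in every guide of a changed gene. That test does not show what changes these data could detect. Depth, 12052218 to 18212884 counts per library, sets counting error only, since PCR reads are not independent molecules, and floors cover that error alone. Guide p-values measure the spread between cultures or aliquots of 1 pool. Gene p-values measure how far the guides of a gene rank together, with guides taken as independent although they share the same libraries. Positions are from GENCODE release 44 of GRCh38, matched by symbol. Guide positions within genes are not given in the sources used here.

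All 8 genes are named. Of their guides, those with the lowest p over the comparisons and those a statement rests on are given by library. Of the pathway list, 3 genes a side are named by rank of p. The genes and lists were chosen with earlier results of these data known.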

Additional observations from a re-analysis of the deposited data

How the results depend on the processing

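No gene of the 8 was called under any of the alternatives run in any comparison, where the lowest adjusted p was 0.887 with GSI against DMSO, 0.921 with DMSO against T0 and 0.890 with GSI against T0, and no gene of the pathway list was called. Calls of single guides against the 8 genes depended on the tool and on the T0 libraries. DESeq2 called 4 with DMSO against T0 and 5 with GSI against T0. Leaving out 1 library at a time gave 0 to 4 with DMSO against T0 and 0 to 11 with GSI against T0, with 4 and 11 without T0 replicate 1 (7.10% and 18% of all guides) and 3 with GSI without T0 replicate 2 (4.71%). Of the 3, the guides HGLibB_46780 and HGLibA_46838 against SPRY2 were higher and HGLibB_46781 against SPRY2 was lower. The cause was not tested. Over all guides, edgeR called 0 with DMSO against T0, DESeq2 6692 and the fit of all 8 libraries 34, and 8294 and 18 were called without T0 replicates 1 and 2. With GSI against T0 it was 7949 by DESeq2, 1 with library totals, and 21030 and 5501 without T0 replicates 1 and 2. With GSI against DMSO it was 10 with library totals. Over all genes, the 6 calls with DMSO against T0 were 3 with all 8 libraries in 1 fit, 0 with a mean count of at least 50 and 0 without either T0 library. The 0 calls with GSI against T0 were 10 with library totals, 2 with DESeq2, and 1 each when guides had to average 50 counts, with all 8 libraries in 1 fit and without GSI replicate 1. The 0 calls with GSI against DMSO were 1 without GSI replicate 1.

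The number of the 8 genes above 0, a count chosen after seeing the data, was 4 with GSI against DMSO and 1 with library totals there. It was 8 with DMSO against T0, 5 with size factors from non-targeting controls and 5 when guides had to average 50 counts, which left 5 genes with enough guides. It was 8 with GSI against T0 and 5, again of 5, under that filter. Leaving out 1 library at a time gave 6 to 8 in both. Control-guide scaling moved the median of all genes to −0.24 with GSI and −0.26 with DMSO against T0, and BRAF, MAPK3 and NF1, at −0.10, −0.09 and −0.06 with DMSO, stood 0.17, 0.17 and 0.20 above that median. The 8 genes' fold changes changed sign in 19 of 125 alternative values with GSI against DMSO, 6 of 117 with DMSO against T0 and 10 of 117 with GSI against T0.

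The groups share replicate numbers. Deviations from the group means over guides correlated at 0.28, 0.064 and 0.121 between GSI and DMSO libraries of the same number, so pairing was not taken as given, though every library correlated best with its own number, a hint from the data only. The T0 aliquots were taken before the remaining cells were divided into cultures. A T0 number therefore has no matching culture, and against T0 the block joins libraries by number alone. With a replicate block 0 of the 8 genes and 0 of their guides were called in each comparison. Against T0, 7 of the 8 were above 0 in both arms (MAP2K1 was at −0.09 with GSI, MAPK3 at −0.03 with DMSO). SPRY2 stood at 2.89 with GSI and 2.21 with DMSO against T0.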
